A study of Mus musculus with 8 samples.

Results

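Integrins, laminins and their basement membrane partners were followed in ventricles of mouse embryos at embryonic day 15.5. The members were picked by gene symbol, from a list set with earlier results of these data known. They are the 18 integrin alpha subunits, the 8 integrin beta subunits, the 11 laminin chains, Nid1, Nid2, Hspg2, Agrn and Dag1. This gave 42 of the 53465 genes in the table. The comparison was between 4 WT libraries and 4 libraries labelled Nrg-1flox;Cdh5-CreERT2, which are called Flox here after their titles. The series' design text gives 1 ventricle per replicate, which the sex-linked genes below do not bear out. In that line a Cre recombinase that tamoxifen activates is driven by Cdh5, a gene of endothelial cells, so the floxed Nrg1 allele is meant to be deleted there and not in cardiomyocytes. The labels do not say whether WT embryos received tamoxifen or carried a floxed allele or Cre.

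Nrg1, the targeted gene, was at 5.46, 4.64, 4.08 and 5.31 CPM in WT against 6.82, 6.33, 6.16 and 5.36 CPM in Flox. It was not lower in Flox (log2 fold change 0.34, FDR 0.311 in edgeR's quasi-likelihood test), where CPM are counts scaled to the library total and the FDR is the adjusted p-value. Each direction below is that of the libraries labelled Flox against WT, and none is shown to follow from a loss of Nrg1. Totals ranged from 16761763 to 24144272 expected counts per library. Xist, which is expressed in females, and the summed Y-linked genes were both above 1 CPM in 7 of 8 libraries. Xist was at 134, 206, 139.7 and 0.176 CPM in WT against 327, 282, 263 and 103 CPM in Flox, and the Y-linked sum was 69.3 to 171 CPM in WT against 42.9 to 120.0 CPM in Flox. RNA of 1 embryo would not hold both, so these 7 libraries go against a single ventricle as their source. Pooling of embryos and mixing of RNA cannot be told apart here, and the number of embryos behind a library is not known. All 10 ventricular cardiomyocyte markers were detected, with a summed level of 45066 to 48672 CPM in WT against 44467 to 49596 CPM in Flox. The p-values therefore measure only the spread between these libraries.

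Basement membranes are thin sheets of matrix on which endothelium lies and which wrap each cardiomyocyte. Laminins, trimers of an alpha, a beta and a gamma chain, form a network that nidogens and the proteoglycan perlecan tie to a network of collagen IV. Cells hold on to this matrix through integrins, which are pairs of an alpha and a beta subunit, and through dystroglycan, and the alpha subunit largely sets which ligand an integrin binds.

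Levels of different genes were compared per kilobase of exonic length, as CPM per kb. That length merges all annotated exons of a gene, whichever transcripts are expressed, and was 4081 bases for Itgb1 and 18599 for Itga1. Orders and sums across genes depend on it. Itgb1, the beta subunit that pairs with most alpha subunits, was the highest member at 229 ± 1.48 CPM per kb in WT (SD, n = 4). Its share of the summed beta subunit level was 80.7% to 82.0% in WT against 81.8% to 82.8% in Flox. Itgb5 followed at 47.6 ± 1.87 CPM per kb in WT, and the other 6 beta subunits were each below 3 CPM per kb. The tested alpha partners of Itgb1 summed to 109 to 113 CPM per kb in WT against 103 to 111 CPM per kb in Flox, under the level of Itgb1 alone.

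**Figure D1:**
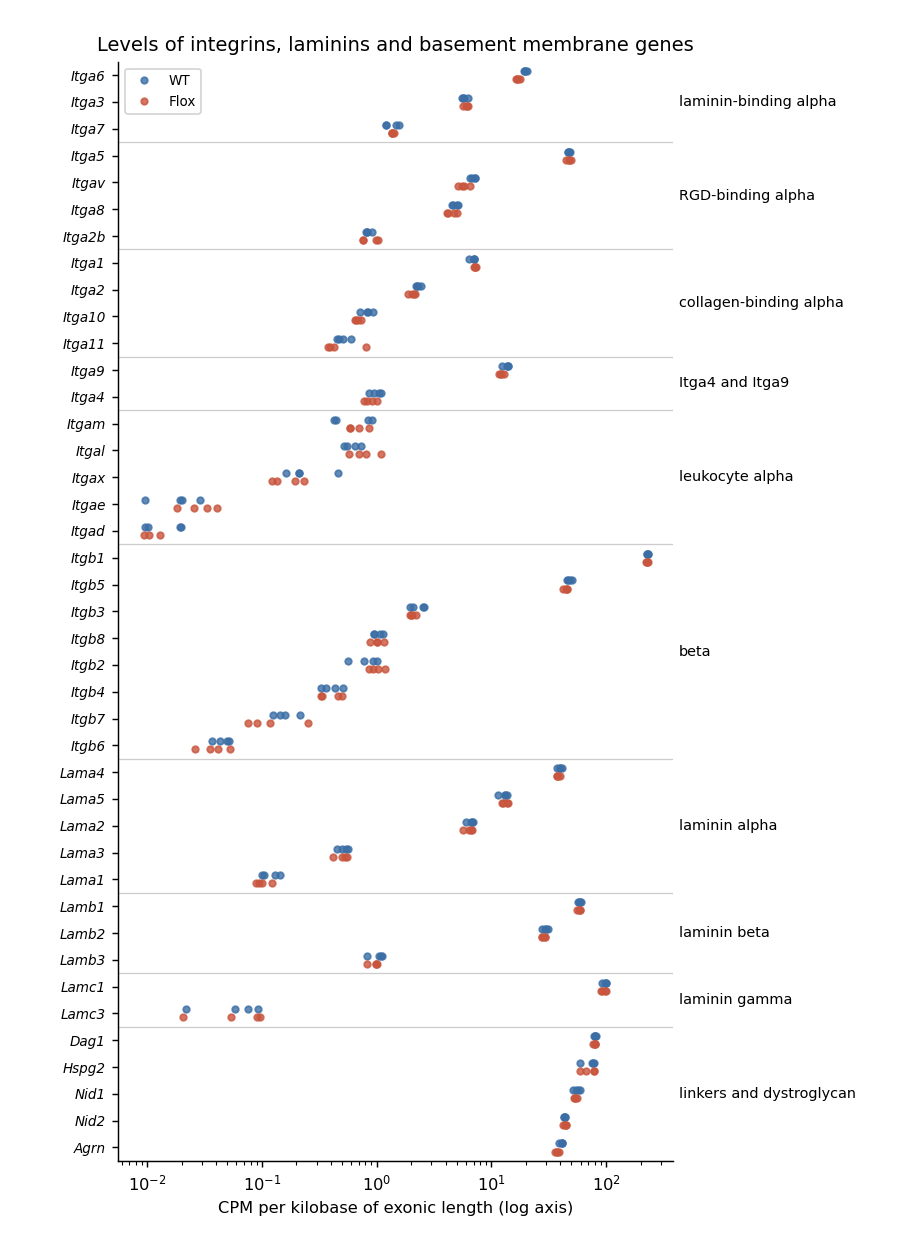
Level of 41 members in each library, in CPM per kilobase of exonic length on a log axis, grouped by class, with 1 point per library and 1 colour per group (the 1 value of 0, for Itgad in Flox library 1, is not drawn). Itgb1 is the highest member and Itgad and Itgae are the lowest, and the groups lie close together on this scale.

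Among alpha subunits the order in WT was Itga5 at 47.7 ± 0.866, Itga6 at 19.7 ± 0.578 and Itga9 at 13.5 ± 0.827 CPM per kb. Itgav at 6.90 ± 0.323 and Itga1 at 6.88 ± 0.346 CPM per kb came next, and did not differ beyond their spread. Lamc1, Lamb1 and Lama4, the chains of the laminin typical of vessel walls, were the highest gamma, beta and alpha chains at 98.2 ± 3.50, 58.8 ± 1.55 and 39.5 ± 1.70 CPM per kb. Lama5 and Lama2 stood at 12.8 ± 1.02 and 6.60 ± 0.411 CPM per kb, and Lama1 and Lama3 were below 1 CPM per kb. Dystroglycan (Dag1) was at 80.8 ± 1.45 CPM per kb and perlecan (Hspg2) at 72.3 ± 9.02 CPM per kb.

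Of the 42 members, 38 passed the filter on low counts and were tested. Itgb6 (4 to 9 expected counts per library), Itgb7 (5 to 13), Itgae (1 to 4) and Itgad (at most 2.30) did not. Only Itga6 passed at an FDR below 0.05, with a lower level in Flox, and no member was called higher. Over all 15388 tested genes 0.526% were called, 0.214% lower and 0.312% higher. At an unadjusted p below 0.05, 7 members were lower (Itga6, Itgav, Agrn, Itga9, Itga2, Itgb5 and Itga10) and none was higher, where the background was 10.5% of all tested genes, 5.41% lower and 5.13% higher. With the Y-linked sum added to the model, 3 members were lower at that level (Itga6, Itgav and Agrn) and 1 was higher (Itgal), where the background of that fit was 4.85% lower and 4.97% higher. No member passed an FDR of 0.05 in it, where 0.104% of all genes did.

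Of those 7 members, 6 were integrins and 5 of these were alpha subunits. Most tested members are of these kinds, since 22 of the 38 were integrins and only 6 of the 22 were beta subunits. Itga6, Agrn and Itga2 were lower in every Flox library than in any WT library, and no member was separated upward. Over all tested genes 6.05% did not overlap between the groups, 2.98% lower and 3.07% higher. Of the 38 tested members, 28 had a log2 fold change below 0, with a median of -0.04, against 50.6% of genes and a median of -0.0012 over all tested genes. DESeq2 called 3 members, adding Itgav and Agrn, and 195 of 15388 genes over all (1.27%).

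**Figure D2:**
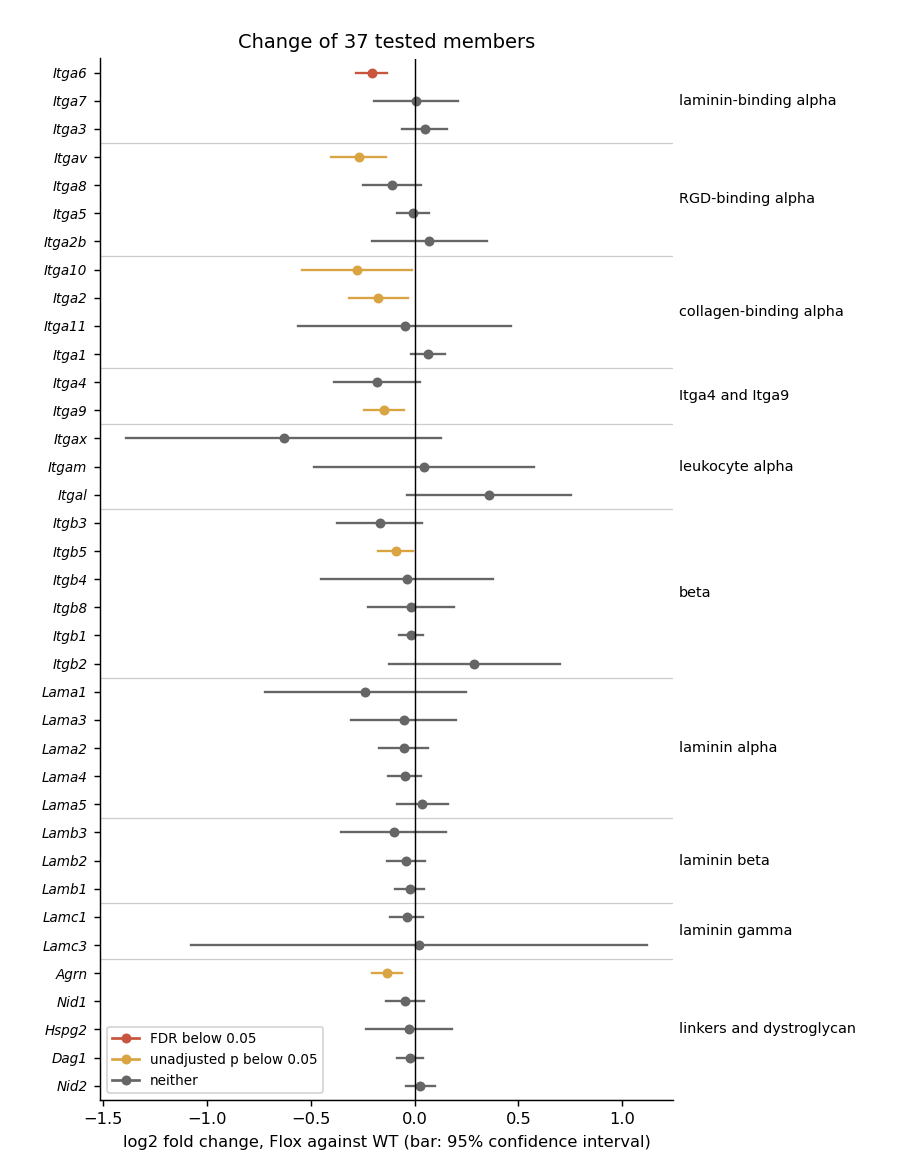
Log2 fold change of Flox against WT for 37 tested members (points) with the 95% confidence interval (bars), ordered within each class and coloured by whether the FDR or the unadjusted p is below 0.05. Itga6 alone passes an FDR of 0.05, the 6 other members with an unadjusted p below 0.05 also lie below 0, and the intervals of the laminin chains drawn include 0.

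Among the alpha subunits that bind laminin (Itga3, Itga6 and Itga7), the most abundant was the one that fell. Itga6 (ENSMUSG00000027111, GRCm38 chromosome 2, 71745616 to 71858416, plus strand), whose protein pairs with those of Itgb1 and Itgb4, was at 178, 185, 172 and 177 CPM in WT against 154, 153, 149 and 161 CPM in Flox. The highest Flox value lay under the lowest WT value. The means were 178 ± 5.22 CPM in WT against 154 ± 5.18 CPM in Flox (SD, n = 4), which is a log2 fold change of -0.21 (FDR 0.0283, SE 0.0351, 95% confidence interval -0.28 to -0.13). The direction held in each of 18 alternatives (-0.23 to -0.19). The FDR passed in 10 of them, was 0.142 with the Y-linked covariate, and lay between 0.0632 and 0.121 when any 1 library other than Flox library 4 was left out. Expected counts of Itga6 were not whole in any of the 8 libraries, so part of its reads was assigned by estimate.

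The other laminin-binding alpha subunits did not pass. Itga3, a subunit of epithelial cells among others, was at 31.5, 32.9, 32.2 and 35.8 CPM in WT against 35.5, 34.9, 34.2 and 32.1 CPM in Flox. The groups overlapped, with a log2 fold change of 0.05 (95% confidence interval -0.06 to 0.16, FDR 0.808). Itga7, the laminin receptor subunit of mature muscle, was at 9.85, 9.71, 12.69 and 12.04 CPM in WT against 11.02, 11.41, 11.01 and 11.12 CPM in Flox. Its values were interleaved, and the log2 fold change of 0.0083 (95% confidence interval -0.19 to 0.21) turned negative in 4 of 18 alternatives. Per kb, Itga6 made up 71.6% to 74.7% in WT against 69.2% to 71.9% in Flox of the level of the 3 subunits, whose sum was 26.3 to 27.4 CPM per kb in WT against 23.9 to 24.9 CPM per kb in Flox.

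The beta partners of Itga6 stood far apart in level. Itgb1 was at 940.1, 943, 929 and 934 CPM in WT against 925, 920.4, 909 and 951 CPM in Flox. The groups overlapped, with a log2 fold change of -0.02 (95% confidence interval -0.07 to 0.04, FDR 0.899). Itgb4, which joins Itga6 at the hemidesmosomes of epithelia, was at 0.411 ± 0.0831 CPM per kb in WT against 0.404 ± 0.0863 CPM per kb in Flox (SD, n = 4).

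**Figure D3:**
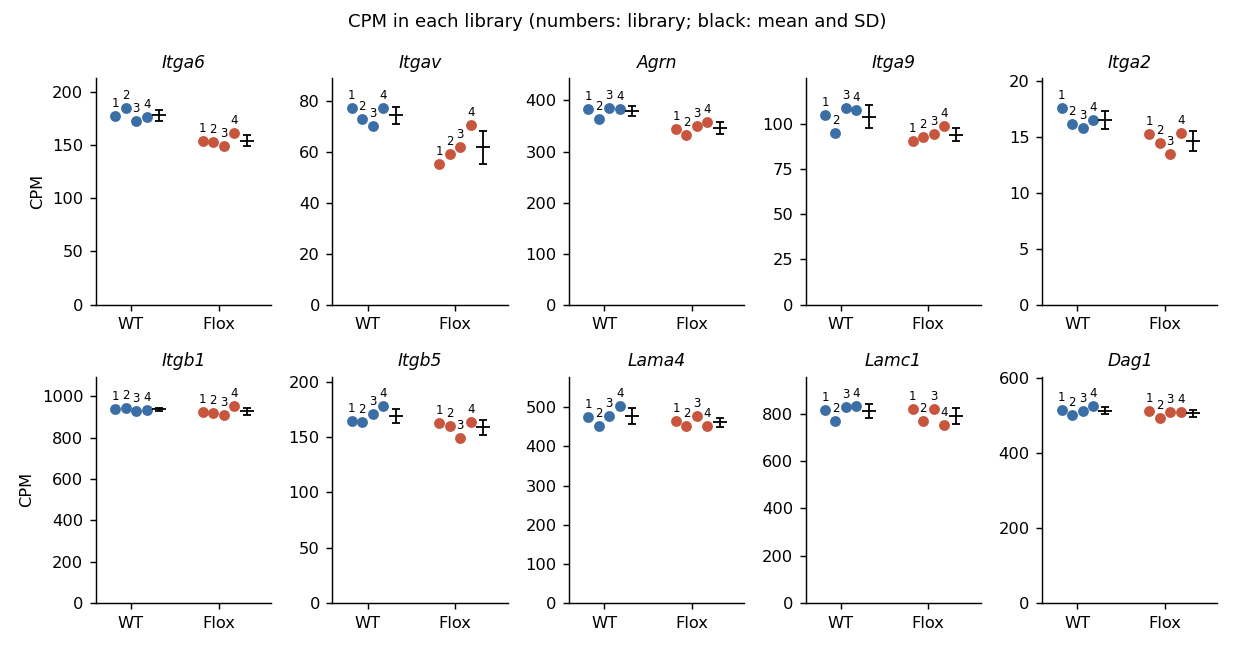
CPM of 10 members in each of the 4 WT and 4 Flox libraries on axes that start at 0, with library numbers above the points and the mean ± SD of each group in black. Itga6, Agrn and Itga2 do not overlap between the groups, Itgav, Itga9 and Itgb5 overlap at 1 or more libraries, and Itgb1, Lama4, Lamc1 and Dag1 are interleaved.

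Endothelial markers tended to lower values, and the medians of other lists given below, such as the atrial list, were below 0 too. Of the 12 endothelial genes, 10 had a log2 fold change below 0, and the median was -0.12. At an unadjusted p below 0.05, where 5.41% of all tested genes were lower and 5.13% higher, 6 of the 12 were lower and 1 was higher. None of the 12 passed an FDR of 0.05. The groups did not overlap for 5 of the 12, all lower in Flox, where 2.98% of all tested genes were separated downward and 3.07% upward. Their summed level was 1254 to 1287 CPM in WT against 1180.0 to 1247 CPM in Flox, and none of the 12 was at 0. Of the genes that define the lineage, Cdh5 (VE-cadherin) was at 291, 286, 280.0 and 285 CPM in WT against 291, 279, 281 and 297 CPM in Flox, with overlapping groups, and Pecam1 was at 193 ± 4.71 CPM in WT against 181 ± 6.92 CPM in Flox (SD, n = 4). The part of endothelial content in the fall of Itga6 was not tested. In whole ventricles, fewer cells of a type and less RNA per cell cannot be told apart.

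Of the 11 laminin chains, the ligands of these receptors, none had an unadjusted p below 0.05, and 9 had a log2 fold change below 0. Lama4, an alpha chain of vessels and endocardium, was at 475, 452, 477 and 502 CPM in WT against 464, 453, 477 and 451 CPM in Flox. The values were interleaved (log2 fold change -0.05, 95% confidence interval -0.13 to 0.03, FDR 0.704). Lama5, an alpha chain of endothelial and epithelial basement membranes, was at 149, 129, 156 and 149 CPM in WT against 158, 143, 157 and 140.0 CPM in Flox. WT library 2 was the lowest, and the log2 fold change of 0.04 (95% confidence interval -0.09 to 0.16) was -0.02 without it. Lama2, the alpha chain of the muscle basement membrane that is lost in a congenital muscular dystrophy, was at 108 ± 6.72 CPM in WT against 104 ± 7.62 CPM in Flox (SD, n = 4). Summed over the 5 alpha chains, the level was 55.4 to 62.1 CPM per kb in WT against 56.0 to 60.6 CPM per kb in Flox.

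The beta and gamma chains were also interleaved between the groups. Lamc1, the gamma chain of most laminins, was at 818, 769, 828 and 832 CPM in WT against 819, 769, 821 and 754 CPM in Flox (log2 fold change -0.04, 95% confidence interval -0.12 to 0.04, FDR 0.798). Lamb1, the beta chain of most embryonic laminins, was at 573, 568, 592 and 599.7 CPM in WT against 583, 574, 589.7 and 549 CPM in Flox (-0.02, 95% confidence interval -0.09 to 0.05). Lamb2, a beta chain of maturing basement membranes, was at 178, 167, 181 and 189 CPM in WT against 179, 168, 179.9 and 167 CPM in Flox (-0.04, FDR 0.797). These 3 chains each had their highest Flox value within the WT range. Of the chains known from epithelial laminins, Lamb3 was at 1.02 ± 0.135 and Lama3 at 0.515 ± 0.0493 CPM per kb in WT (SD, n = 4). Lamc3 had 3 to 13 expected counts per library.

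The balance within pairs was measured as the log2 ratio of their counts in each library, which does not depend on scaling. The ratio of Lama4 to Lama5 was 1.71 ± 0.0873 in WT against 1.63 ± 0.0612 in Flox (SD, n = 4). The difference, Flox minus WT, was -0.09 (exact permutation p = 0.171, adjusted 0.457). It was -0.02 (exact permutation p = 0.429, adjusted 0.571) for Lamb2 to Lamb1, a pair of alternative beta chains. For Itga7 to Itga5, a laminin over a fibronectin receptor subunit, it was 0.03 (exact permutation p = 0.829, adjusted 0.829). For Nid2 to Nid1 it was 0.07 (exact permutation p = 0.229, adjusted 0.457). None of the 4 two-sided tests passed. With 4 libraries a group, the smallest exact p is 0.0286, and 1 ratio alone could not go below 0.114 after adjustment over the 4.

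Of the receptor subunits for proteins with the tripeptide RGD, such as fibronectin, Itgav had the lowest p. Itgav (ENSMUSG00000027087, chromosome 2, 83724397 to 83806916, plus strand) encodes the V subunit, which pairs with several beta subunits and, besides binding matrix, helps to free TGF-beta from its latent form. It was at 76.9, 72.8, 69.9 and 77.1 CPM in WT against 55.2, 59.1, 61.9 and 70.5 CPM in Flox. Flox library 4 lay above the lowest WT value, and the other 3 lay below all of WT. The log2 fold change was -0.27 (unadjusted p = 0.000736, SE 0.0610, 95% confidence interval -0.40 to -0.14), and the FDR of 0.0765 did not pass. It passed in 4 of 18 alternatives, among them DESeq2 (adjusted p = 0.00736) and the fit without Flox library 4 (-0.33, FDR 0.0105). With the Y-linked covariate it was -0.18 (FDR 0.398), and with any other 1 library left out the FDR was 0.116 to 0.222.

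The other RGD-binding subunits had smaller differences. Itga5, the fibronectin receptor subunit and the most abundant alpha subunit, was at 241, 232, 232 and 236 CPM in WT against 235, 221, 234 and 247 CPM in Flox. The groups overlapped (log2 fold change -0.0078, 95% confidence interval -0.09 to 0.07), and the sign turned in 3 of 18 alternatives. Itga8, a receptor subunit for nephronectin, was at 35.8 ± 2.22 CPM in WT against 33.3 ± 3.15 CPM in Flox (SD, n = 4), with an FDR of 0.611. Per kb, Itgav held 10.9% to 11.8% in WT against 8.88% to 10.5% in Flox of the summed level of Itga5, Itga8, Itgav and Itga2b.

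Among the beta partners of Itgav, Itgb5, a vitronectin receptor subunit, was at 165, 163, 171 and 178 CPM in WT against 163, 159.9, 149 and 164 CPM in Flox. Flox library 3 was the lowest, and the log2 fold change was -0.09 (unadjusted p = 0.0378, FDR 0.438). Itgb3 was at 13.6 ± 1.89 CPM in WT against 12.1 ± 0.619 CPM in Flox (SD, n = 4) and Itgb8, which with the V subunit activates TGF-beta, at 11.3 ± 1.01 CPM in WT against 11.2 ± 1.31 CPM in Flox (SD, n = 4). Summed per kb, Itgb3, Itgb5, Itgb6 and Itgb8 were at 49.2 to 53.7 CPM per kb in WT against 45.1 to 49.5 CPM per kb in Flox.

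Of 20 tested genes among the other integrin ligands, none passed an FDR of 0.05, and the median log2 fold change was -0.04. At an unadjusted p below 0.05, 3 were lower and 1 was higher, against 5.41% and 5.13% of all tested genes. Adam15, a membrane protease with a disintegrin domain, was at 57.2 ± 2.98 CPM in WT against 51.4 ± 1.55 CPM in Flox (SD, n = 4), or -0.16 on the log2 scale at FDR 0.140. Postn, a matrix protein of valve and fibroblast cells that binds integrins with the V subunit, was at 760.1 ± 56.3 CPM in WT against 672 ± 42.5 CPM in Flox (SD, n = 4), or -0.18 on the log2 scale at FDR 0.225. For Postn it was -0.08 with the Y-linked covariate (FDR 0.673), and DESeq2 gave an adjusted p of 0.0480. Chosen after their values were seen, Fn1 (fibronectin) was at 1288 ± 74.2 CPM in WT against 1337 ± 29.7 CPM in Flox (SD, n = 4), with an FDR of 0.678, and Spp1 (osteopontin) was at 14.9, 46.1, 58.2 and 8.96 CPM in WT against 10.1, 8.56, 18.8 and 8.89 CPM in Flox. WT libraries 2 and 3 alone were high for Spp1, and its FDR was 0.283.

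The bases upstream of the transcription start are shown for Itgav and Agrn, which had the lowest p after Itga6, and for the abundant Itgb1. The RefSeq table, on GRCm38.p6, held promoters for 27 of the 42 members, and Itga6 was not among them. Each run gives the 250 bases before the start, 5′ to 3′, with GC boxes (GGGCGG, or CCGCCC on the other strand) in capitals.
Itgav, chr2:83724147-83724396, plus strand: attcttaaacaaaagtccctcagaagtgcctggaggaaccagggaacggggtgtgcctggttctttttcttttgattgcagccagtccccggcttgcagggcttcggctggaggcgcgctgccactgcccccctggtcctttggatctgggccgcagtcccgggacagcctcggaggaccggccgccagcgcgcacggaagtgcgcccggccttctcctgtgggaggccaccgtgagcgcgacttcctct
Agrn, chr4:156197489-156197738, minus strand: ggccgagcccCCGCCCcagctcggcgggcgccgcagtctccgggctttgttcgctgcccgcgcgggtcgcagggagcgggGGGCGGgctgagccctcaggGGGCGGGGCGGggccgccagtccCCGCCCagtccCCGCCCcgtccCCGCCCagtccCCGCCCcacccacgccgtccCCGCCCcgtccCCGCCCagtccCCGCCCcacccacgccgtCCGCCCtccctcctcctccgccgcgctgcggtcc
Itgb1, chr8:128685404-128685653, plus strand: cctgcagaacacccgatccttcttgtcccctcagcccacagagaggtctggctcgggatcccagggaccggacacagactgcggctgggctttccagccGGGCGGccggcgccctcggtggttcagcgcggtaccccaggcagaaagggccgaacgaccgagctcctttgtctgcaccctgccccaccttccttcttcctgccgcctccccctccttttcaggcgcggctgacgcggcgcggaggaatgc
These stretches hold 0, 12 and 1 GC boxes, with overlapping matches counted each, and 64.4%, 83.6% and 68.0% G and C. Of all 32851 promoters of this length in the table, 32.7% hold at least 1 GC box and 8.47% hold 3 or more. Of the 32 promoters of the members, 15 (46.9%) hold at least 1 and 21.9% hold 3 or more. No binding or chromatin data bear on these letters here, and they are a description.

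The collagen-binding subunits Itga1, Itga2, Itga10 and Itga11 differed in direction. Itga1, the most abundant of the 4 and a collagen IV receptor subunit, was at 131, 118, 132 and 130.4 CPM in WT against 136, 135, 134 and 130.3 CPM in Flox. WT library 2 was low, and the log2 fold change was 0.06 (95% confidence interval -0.02 to 0.15, FDR 0.606) and 0.03 without it. Itga2 (chromosome 13, 114833081 to 114932100, minus strand), known from platelets and epithelia, was at 17.6, 16.1, 15.8 and 16.5 CPM in WT against 15.3, 14.4, 13.4 and 15.4 CPM in Flox. These values did not overlap, with a log2 fold change of -0.18 (SE 0.0654, unadjusted p = 0.0189), and the FDR of 0.352 did not pass. Itga10, a subunit of cartilage, was at 4.31 ± 0.473 CPM in WT against 3.55 ± 0.206 CPM in Flox (SD, n = 4), with an FDR of 0.451, and 33.5% of its exonic bases are shared with Gm42957, so its counts are uncertain. Itga11, a subunit of fibroblasts, was at 2.64, 3.09, 2.30 and 2.42 CPM in WT against 2.17, 1.93, 2.01 and 4.18 CPM in Flox. Flox library 4 was above all of WT, and the other 3 Flox libraries were below it.

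Itga9 and Itga4, receptor subunits for Vcam1, tenascin C and osteopontin among others, both had negative log2 fold changes without passing. Itga9 (chromosome 9, 118606690 to 118901003, plus strand), needed for the valves of lymphatic vessels, was at 105, 94.6, 109 and 107 CPM in WT against 90.1, 92.8, 94.2 and 98.5 CPM in Flox. WT library 2 lay within the Flox range, and the log2 fold change was -0.15 (SE 0.0442, unadjusted p = 0.00592, FDR 0.216). With the Y-linked covariate it was -0.07 (FDR 0.655). Of 18 alternatives 1 passed, the one chosen after seeing the data that leaves out WT library 2 and Flox library 4, the lowest WT and the highest Flox value of this gene (-0.21, FDR 0.0207). Itga4, carried by leukocytes and by the epicardium, was at 13.9 ± 1.43 CPM in WT against 12.3 ± 1.42 CPM in Flox (SD, n = 4), with an FDR of 0.562. Their ligand gene Vcam1, named after its values were seen, was at 130.4, 132, 125 and 128 CPM in WT against 135, 143, 136 and 132 CPM in Flox. Every Flox value lay above every WT value, by a narrow margin, with a log2 fold change of 0.08 and an FDR of 0.385.

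Leukocyte and platelet integrins were among the low members. Itgal, the alpha subunit of LFA-1, had the smallest unadjusted p among members with a positive log2 fold change, and was at 3.65, 3.44, 4.78 and 4.26 CPM in WT against 3.74, 4.61, 5.32 and 7.18 CPM in Flox. The groups overlapped, and Flox library 4 was the highest (log2 fold change 0.36, 95% confidence interval -0.04 to 0.75, FDR 0.539). It was 0.18 without that library and 0.63 with the Y-linked covariate (FDR 0.315). Itgb2, its beta partner, was at 2.36, 2.83, 3.09 and 1.71 CPM in WT against 2.83, 3.15, 2.61 and 3.65 CPM in Flox (0.29, FDR 0.649), again with overlap, and its log2 fold change was 0.14 without WT library 4. The 12 macrophage and leukocyte markers summed to 129 to 180.0 CPM in WT against 139 to 206 CPM in Flox, with 10 log2 fold changes above 0, no unadjusted p below 0.05 and no marker at 0. The part of leukocyte content in these levels was not tested.

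Itgam, the macrophage and neutrophil subunit, was at 3.28 ± 1.28 CPM in WT against 3.42 ± 0.645 CPM in Flox (SD, n = 4), and 68.7% of its exonic bases are shared with Gm49368. Itgax, known from dendritic cells, was at 0.786, 1.02, 2.22 and 1.01 CPM in WT against 0.657, 0.587, 0.933 and 1.12 CPM in Flox. WT library 3 was high, and the FDR was 0.578. Itga2b, the platelet fibrinogen receptor subunit, was at 4.58 ± 0.253 CPM in WT against 4.84 ± 0.778 CPM in Flox (SD, n = 4), and the 10 megakaryocyte and platelet markers summed to 82.8 to 99.5 CPM in WT against 85.0 to 95.8 CPM in Flox.

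Of the linkers, agrin had the lowest p. Agrn (ENSMUSG00000041936, chromosome 4, 156165290 to 156197488, minus strand) encodes a heparan sulfate proteoglycan that bridges laminin and dystroglycan and is known for clustering receptors at the neuromuscular junction. It was at 383, 365, 385 and 384 CPM in WT against 344, 332, 349 and 359 CPM in Flox. The highest Flox value was under the lowest WT value. The log2 fold change was -0.13 (unadjusted p = 0.00176, SE 0.0335, 95% confidence interval -0.20 to -0.06), and the FDR of 0.122 did not pass. Over 18 alternatives the log2 fold change was -0.17 to -0.08 and the adjusted p 0.0105 to 0.474, the lowest of them from DESeq2.

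Dag1, the receptor that agrin, perlecan and laminin alpha chains bind through its sugar chains, was at 514, 503, 511 and 525 CPM in WT against 512, 493, 510.5 and 509 CPM in Flox. The groups were interleaved, with a log2 fold change of -0.02 (95% confidence interval -0.08 to 0.04, FDR 0.871). Nid1 and Nid2, which link laminin to collagen IV, were measured next. Nid1 was at 383, 355, 399 and 410.3 CPM in WT against 371, 375, 364 and 389 CPM in Flox (-0.05, 95% confidence interval -0.14 to 0.05). Nid2 was at 221, 226, 226 and 222 CPM in WT against 228, 217, 234 and 233 CPM in Flox (0.03, 95% confidence interval -0.04 to 0.10). Both overlapped between the groups, and with the Y-linked covariate Dag1 and Nid1 turned to 0.0047 and 0.03.

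Hspg2 varied more between libraries than between groups, and was at 1084, 842, 1115 and 1096 CPM in WT against 1128, 955, 1121 and 853 CPM in Flox. WT library 2 and Flox library 4 were low, and the log2 fold change was -0.03 (95% confidence interval -0.23 to 0.18, FDR 0.960). Its coefficient of variation over the 8 libraries was 11.9%, and 10.8% after a correction for GC content and exonic length. WT library 2 was the lowest of its group for 11 of the 16 tested laminin, linker and dystroglycan genes and for 10 of the 22 tested integrins. Among Flox libraries, library 4 was the lowest for 7 of 16 and 3 of 22, and library 2 for 6 of 16 and 6 of 22. Library 3 was the lowest for 2 of 16 and 8 of 22, so library 4 did not stand apart as the lowest. This count does not cover the highest values. Flox library 4 held the highest Flox value of Itga6, Itgav, Itga9 and Agrn. The tested members had a median exonic length of 7074 bases against 4252 over all tested genes. Without WT library 2 and Flox library 4, an alternative added after seeing the data, 4 members were called (Agrn, Itga6, Itga9 and Itgav), all lower, where 120 of 15460 genes (0.776%) were called, 81 of them lower. At an unadjusted p below 0.05, 11 members were lower in that fit, against 6.86% of all genes.

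**Figure D4:**
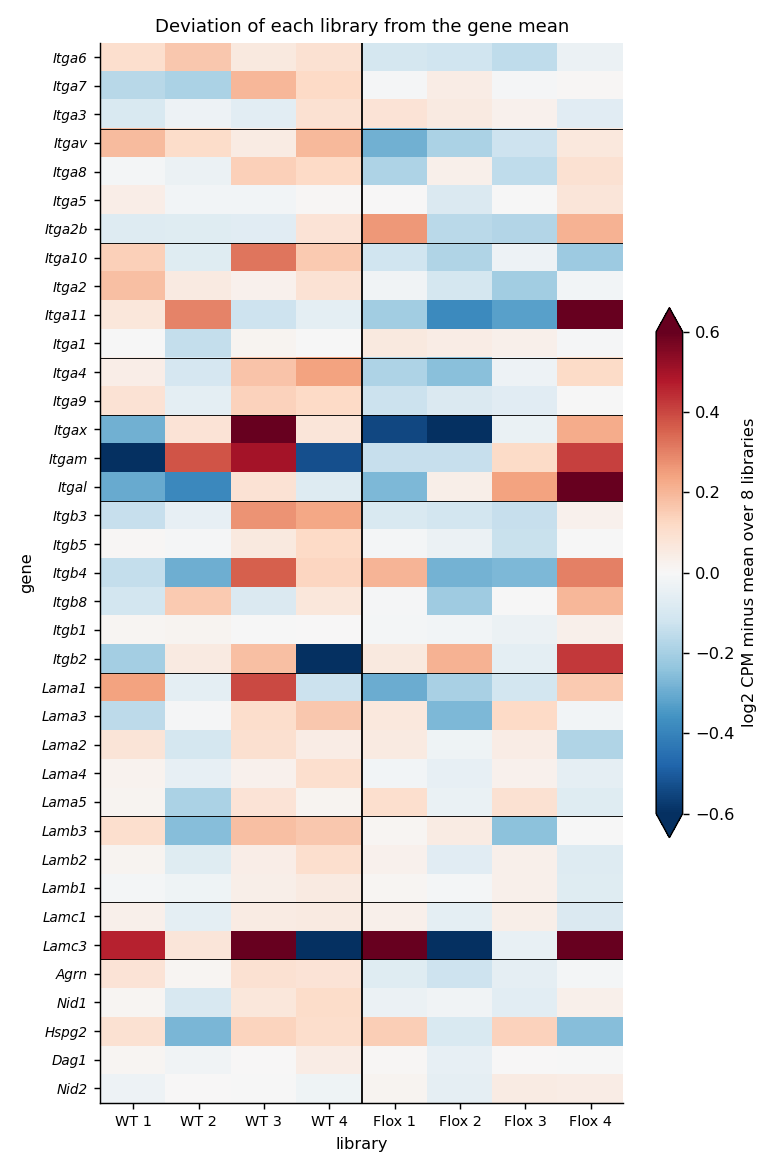
Deviation of each library from the gene's mean over the 8 libraries, in log2 CPM, for 37 tested members by class (red above, blue below, with colours saturating at the ends of the bar). Itga6 is lower in all 4 Flox libraries than in WT, Hspg2 is low in WT library 2 and Flox library 4, and Itgax and Lamc3 vary most from library to library.

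Among 25 other basement membrane genes, none passed an FDR of 0.05, and the median log2 fold change was -0.06. At an unadjusted p below 0.05, 9 were lower and 2 higher, against 5.41% and 5.13% of all tested genes. The groups did not overlap for 4 that were lower and 1 that was higher, against 2.98% and 3.07% of all tested genes. Col18a1, whose product holds endostatin, was at 419.6, 436, 427 and 436 CPM in WT against 378, 381, 375 and 409 CPM in Flox. Its groups did not overlap (-0.16, FDR 0.0711). It passed in 5 of 18 alternatives, among them DESeq2 (adjusted p = 0.00104), and its FDR was 0.335 with the Y-linked covariate. Smoc1, a calcium-binding matrix protein, was at 29.3 ± 1.45 CPM in WT against 24.8 ± 2.19 CPM in Flox (SD, n = 4), or -0.25 on the log2 scale at FDR 0.120. The collagen IV chain genes Col4a1 and Col4a2, named after their values were seen, had log2 fold changes of -0.09 (FDR 0.259) and -0.08 (FDR 0.360).

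The lists of integrin adhesion, the dystrophin glycoprotein complex and dystroglycan glycosylation had medians nearer 0. The background for their counts at an unadjusted p below 0.05 was 5.41% of all tested genes lower and 5.13% higher. Of 27 tested genes of integrin adhesion, such as talin and integrin-linked kinase, none passed an FDR of 0.05, 1 was lower and 2 were higher at an unadjusted p below 0.05, and the median log2 fold change was 0.0022. Cd9, a tetraspanin that associates with integrins, was at 39.9 ± 2.90 CPM in WT against 34.5 ± 0.722 CPM in Flox (SD, n = 4), or -0.21 on the log2 scale at FDR 0.0911. Bcar1, a scaffold of focal adhesions, was at 81.9 ± 1.39 CPM in WT against 87.2 ± 2.40 CPM in Flox (SD, n = 4), or 0.09 on the log2 scale at FDR 0.286. Of the 14 genes of the dystrophin glycoprotein complex, none passed, 1 was lower (Sgca, a sarcoglycan, -0.17, FDR 0.249) and 2 were higher at that unadjusted level, among them Sntb1, a syntrophin (0.12, FDR 0.388). Of the 17 genes that glycosylate dystroglycan, none passed, 1 was higher (B3galnt2, 0.11, FDR 0.469).

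Of the markers of other cell types in a ventricle, Kcnj3, on the atrial list, was the 1 gene past an FDR of 0.05 (-0.46, FDR 0.0261). Atrial genes were below 0 in 10 of 10, with sums of 3390.0 to 3898 CPM in WT against 3342 to 3576 CPM in Flox. Fibroblast and valve genes were below 0 in 9 of 12, with sums of 5694 to 6711 CPM in WT against 5474 to 6622 CPM in Flox. Smooth muscle and pericyte genes were below 0 in 8 of 10 and summed to 2129 to 2251 CPM in WT against 2193 to 2309 CPM in Flox. Epicardial genes were above 0 in 8 of 10 and erythroid genes in 11 of 12. Of the 10 Schwann and neural crest genes, 6 were under 1 CPM in every library, 4 were tested and 2 of these were below 0. At an unadjusted p below 0.05, 5 atrial, 4 fibroblast and valve, 4 smooth muscle and pericyte and 2 Schwann genes were lower. At that level 1 smooth muscle and pericyte, 1 epicardial and 1 erythroid gene were higher. The background was 5.41% lower and 5.13% higher. The medians of the atrial, fibroblast and smooth muscle lists were -0.18, -0.10 and -0.11. The part of these cell types in the levels of Itga6, Itgav, Agrn and Itga9 was not tested.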

How the data were processed

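RNA-seq of mouse ventricles was analysed in 4 WT and 4 Flox libraries, read as 60-base single reads. The table the authors deposited holds expected counts per gene from RSEM, an estimate that divides reads matching several genes, so that 18.1% of all values were fractional (tolerance 0.001). The submitters' processing notes name RSEM 1.3.1, cutadapt and GRCm38, and the table's name gives Ensembl release 91. The kit keeps strand, while the aligner and the strand setting of the counting are not given in the sources used here.

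Values were rounded, filtered with filterByExpr by group, scaled with TMM and tested in R 4.3.3 by edgeR 4.0.16 (glmQLFit, glmQLFTest, two-sided, no covariate). FDR values were adjusted by Benjamini-Hochberg over the 15388 genes tested, with a threshold of 0.05. Positions and exonic lengths came from GENCODE M21 on GRCm38, which matched 53360 of 53465 identifiers. CPM used TMM-scaled totals. Ratios were compared by exact permutation in scipy 1.17.1. Depth limits low members, and no library was a copy of another (chi-square per degree of freedom at least 2.98). In a simulation of this comparison over 15388 genes, 84 of 100 genes changed by 1 and 63 of 100 changed by 0.5 on the log2 scale were recovered. Of 161 calls 14 were false, a larger share than the threshold of 0.05. Changes as small as those of Itga6 (-0.21), Itgav (-0.27) and Agrn (-0.13) were not simulated, so recovery at that size is not known.

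The members and lists were chosen with earlier results of these data known. By rule, values are given for members past the FDR, the 4 with the smallest p in each direction, the highest per kb of each class, shared partners and ratio genes, and for the genes past the FDR and the 2 with the smallest p of each pathway list. Other genes named were chosen after their values were seen. Some genes of the lists are not reported here and are left out of the plots. Alternatives were RLE and upper quartile scaling, no filter, a filter of 1 CPM in 4 libraries, DESeq2 1.42.0, limma voom 3.58.1, the replicate number as a block, the Y-linked level as a covariate, lowess trends on GC content and length (span 0.3), each library left out and, added after seeing the data, WT library 2 and Flox library 4 left out together.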

Additional observations from a re-analysis of the deposited data

Results flagged for a closer look

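In 6 of 84 sets of 4 values (38 members and 4 ratios in each group), 1 value stood far from the rest by Dixon's criterion, which flags about 1 in 20 sets by chance, or 4.2 of 84. For WT library 2 these were Agrn with 364.6 CPM (383 to 385.4 in the remaining WT), Hspg2 with 841.8 CPM (1084 to 1115) and Itga1 with 118.4 CPM (130.4 to 132.4). For Flox library 4 it was Itga11 with 4.179 CPM (1.93 to 2.174). Itga2b had 4.964 CPM in WT library 4 (4.44 to 4.476), and Itgax had 2.216 CPM in WT library 3 (0.7863 to 1.016). The cause was not tested.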

How the results depend on the processing

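Itga6 was the 1 member called under RLE and upper quartile scaling, the CPM filter, limma voom, the GC and length correction and the replicate block. The number of members called was 3 in DESeq2, 2 without a filter, 0 with the Y-linked covariate and 4 without WT library 2 and Flox library 4. Over all genes, 81 calls became 195, 338, 16 and 120. At an unadjusted p below 0.05 the covariate left 3 members lower and 1 higher, no filter gave 1 higher, and the fit without both libraries gave 11 lower. With the replicate number as a block, 1 member was called, 1 was higher at an unadjusted p below 0.05 (Itgal) and 93 genes were called over all. Same-numbered libraries correlated at 0.0998, 0.0474, 0.0447 and 0.121 in their deviations from the group means. Other pairs lay at -0.0877 to 0.0195, below each of the same-numbered pairs. Since the same-numbered pairs were not all over 0.1, the main fit and the main ratio tests did not pair them. That cut cannot show that these libraries share only a number, and what they share was not tested. Leaving out 1 library gave 0 to 2 members called, with 0 for each library but Flox library 4, and 0 to 1 higher and 5 to 9 lower at an unadjusted p below 0.05, where 4.07% to 6.02% of all genes were higher and 4.09% to 6.55% lower. Over all genes it gave 11 (without Flox library 3) to 142 calls (without Flox library 4). Of 540 single-gene values over 30 genes, 503 kept direction and side of the threshold, 8 lost significance (all of Itga6), 19 gained it and 10 changed sign. The sign changed for Dag1 (0.0047), Itga5 (0.040) and Nid1 (0.027) with the covariate and for Itga7 without both libraries (-0.0485). With 1 library left out it changed for Itga5 (-0.034 to 0.021), Itga7 (-0.050 to 0.082), Lama5 (-0.017 to 0.073) and the ratio of Itga7 to Itga5 (-0.038 to 0.10). The other ratios kept their sign. The cause was not tested, and fits with fewer libraries have less power by construction.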
